A study of Mus musculus with 27 samples.

Results

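The mRNAs of 10 mouse genes for the small GTPases Rap1a and Rap1b and for proteins that switch them on or off were followed in hippocampus. They were 10 of the 51826 genes in the deposited gene expression table, found there by gene name, and all 10 were among the 19969 genes that passed the filter on low counts. The set was drawn up around Rap1gap2, which was picked because its level was higher with xanthohumol after ovariectomy, so the OVX Xmo and OVX saline levels of Rap1gap2 are the measured values that the members were chosen by, and they are described without a test. The other 9 members were chosen by their part in Rap1 signalling, with earlier results of these data known. The mice were of the ICR strain, which is outbred. The 4 groups were ovariectomised mice given xanthohumol (OVX Xmo, n = 4), ovariectomised mice given saline (OVX saline, n = 4), sham-operated mice given xanthohumol (sham Xmo, n = 4) and sham-operated mice given saline (sham saline, n = 3). Ovariectomy removes the ovaries and with them the main source of oestrogen, and xanthohumol (Xmo) is a prenylated flavonoid of hops. The sources used here give no age, dose or time after surgery. Whether the samples of a group were separate animals is not stated either, and p-values therefore reflect the scatter of these samples alone, which may be technical.

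Rap1 proteins are Ras-like switches that are active when bound to GTP. Guanine nucleotide exchange factors, the Rapgef proteins, load them with GTP, and GTPase-activating proteins, among them Rap1gap, Rap1gap2 and the Sipa1l family, speed up the hydrolysis of that GTP and so turn them off. In neurons Rap1 signalling is known for its part in integrin adhesion, in the shape of dendritic spines and in the traffic of AMPA receptors at synapses, and the exchange factors Rapgef3 and Rapgef4 (Epac1 and Epac2) link it to cyclic AMP.

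The 15 libraries held between 20848661 and 39140593 gene counts. Genes of the mitochondrial genome took 13.1% to 17.8% of the counts in OVX Xmo, 12.4% to 17.5% in OVX saline, 15.04% to 20.6% in sham Xmo and 20.2% to 35.4% in sham saline, so the share was highest in sham saline, whose lowest library lay within the range of sham Xmo. Levels below are CPM (a gene's share of its library's counts) scaled by TMM factors, which lie between 0.726 and 0.969 in sham saline and between 0.976 and 1.09 in the other libraries. Without that scaling the median of all genes shifted by 0.33 on the log2 scale in OVX saline against sham saline and by 0.32 in sham Xmo against sham saline. Summed neuronal marker levels were 7762 to 8133 CPM in OVX Xmo, 7412 to 8063 CPM in OVX saline, 6635 to 7818 CPM in sham Xmo and 7341 to 9020 CPM in sham saline, with all 6 markers detected. In bulk tissue, fewer cells of a type and less RNA per cell cannot be told apart.

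The gene whose level varied most, Rap1gap2, lies on the minus strand of chromosome 11 (GRCm38.p6, chr11:74383356-74610915) and overlaps no other gene of the table. RefSeq lists 4 start sites for it on that build. The outermost and the innermost windows are shown, each 300 bases from 250 before the start, because the transcript length implied by the deposited values of this gene differed between libraries. Capitals mark the GC box (GGGCGG, either strand) and the core letters of an antioxidant response element (TGACNNNGC, either strand).
Rap1gap2 outermost start, chr11:74610866-74611165, minus strand: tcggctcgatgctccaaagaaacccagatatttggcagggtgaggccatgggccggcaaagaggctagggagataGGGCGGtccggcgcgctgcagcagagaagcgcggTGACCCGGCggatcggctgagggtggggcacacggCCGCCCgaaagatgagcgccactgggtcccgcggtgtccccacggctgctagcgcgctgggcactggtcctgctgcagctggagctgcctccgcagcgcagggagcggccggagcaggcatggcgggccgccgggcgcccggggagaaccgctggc
Rap1gap2 innermost start, chr11:74522752-74523051, minus strand: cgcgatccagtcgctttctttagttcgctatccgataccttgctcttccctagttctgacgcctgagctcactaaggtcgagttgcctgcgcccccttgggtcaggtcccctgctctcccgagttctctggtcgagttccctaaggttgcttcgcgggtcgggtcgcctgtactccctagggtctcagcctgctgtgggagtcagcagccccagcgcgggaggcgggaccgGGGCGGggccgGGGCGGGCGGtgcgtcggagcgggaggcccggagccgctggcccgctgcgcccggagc
The outermost start, at 74610915, is the end of the gene as deposited. Its window had a GC content of 71.3% and the innermost one 68.3%, against a median of 52.7% over all 32851 windows of the table. A GC box was in all 4 windows of Rap1gap2, and in 35.7% of all windows. The antioxidant response core was in the outermost window, at position -141 from the start, and in the window of the next start inward, whereas 12.4% of all windows held one. None of the 4 windows held an oestrogen response element (GGTCA, any 3 bases, then TGACC, in 0.07% of all windows) or a cyclic AMP response element (TGACGTCA, in 1.79%). Among the 22 windows of the 9 members that matched, the cyclic AMP element was found in that of Rap1b, at position -42. These matches describe the letters and say nothing about binding.

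Per unit of transcript length, the Epac2 gene Rapgef4 was the most abundant member, with a median of 239 TPM (a share corrected for transcript length, as deposited) over the 15 libraries. Rap1gap followed at 167 TPM, Sipa1l1 at 77.4 TPM and Rapgef5 at 51.0 TPM. Rapgef2 had 37.5 TPM, the GTPases Rap1a and Rap1b 33.0 and 31.4 TPM, Rap1gap2 24.1 TPM, Rapgef1 22.4 TPM and Sipa1l2 15.1 TPM. The ranges over libraries of every pair of neighbours in this order overlapped. Within a library the order was firmer in places: Rap1gap exceeded Sipa1l1, Sipa1l1 exceeded Rapgef5, Rapgef5 exceeded Rapgef2, and Rapgef1 exceeded Sipa1l2 in 15 of 15 libraries. Rap1gap2 exceeded Rapgef1 in 6 of 15 and Rapgef4 exceeded Rap1gap in 12 of 15.

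Rap1gap2 also spread more widely than the other members. The SD of its log2 CPM over the 15 libraries was 0.68, against 0.32 for Rap1a, 0.09 to 0.20 for the other 8 and a median of 0.29 over all genes tested. Its highest level was 3.57 times its lowest, while for Rapgef5 the ratio was 1.25. The choice of Rap1gap2 for its difference between OVX groups is part of this spread.

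**Figure D1:**
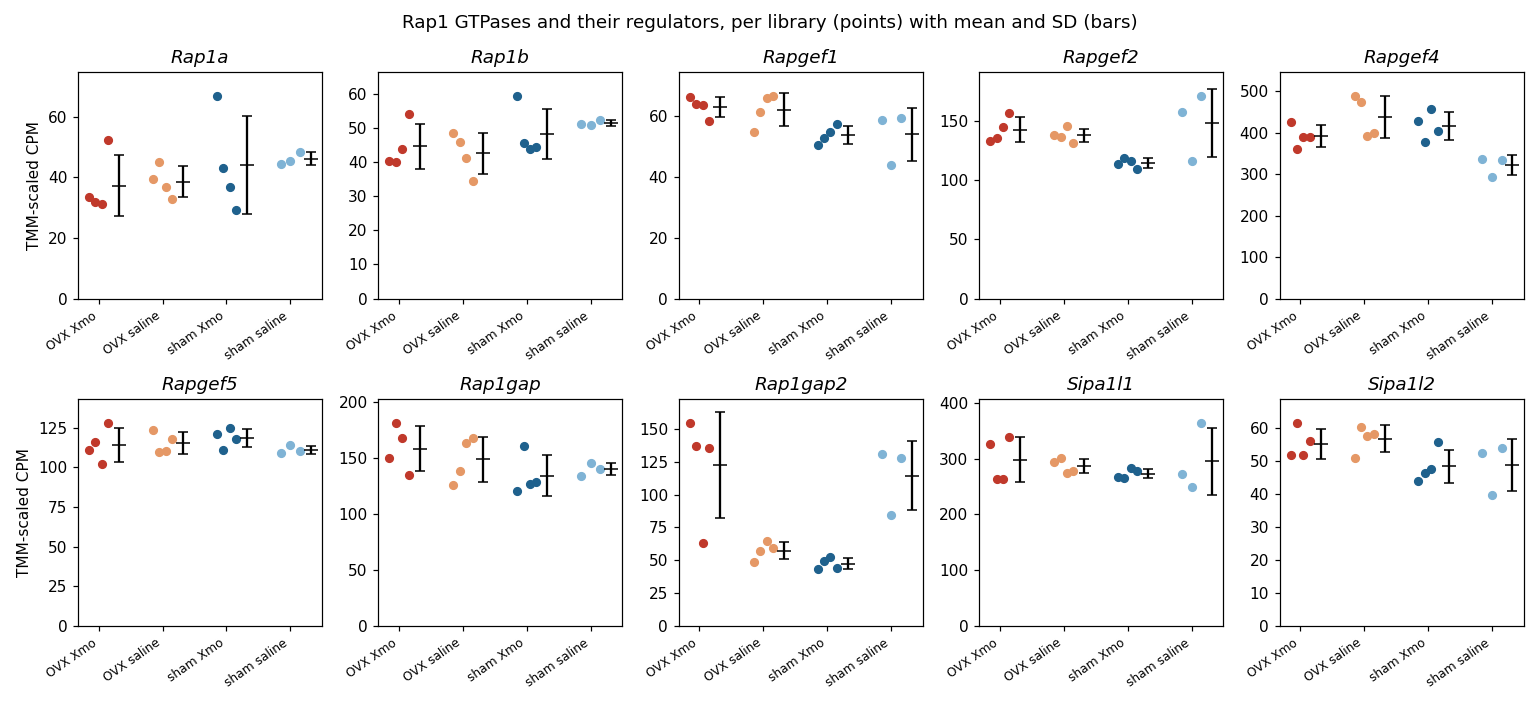
TMM-scaled CPM of the 10 members in each library (points), with the mean and SD of each group (bars); every axis starts at 0. Rap1gap2 is at 43.3 to 52.6 CPM in sham Xmo and at 84.2 to 131 CPM in sham saline, and OVX Xmo 3 sits apart from the other OVX Xmo libraries.

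Rap1gap2 encodes a GTPase-activating protein of Rap1 known from platelets and neurons. It had 154, 137, 62.9 and 136 CPM in OVX Xmo 1 to 4 and 48.5, 56.8, 64.7 and 59.2 CPM in OVX saline 1 to 4. It had 43.3, 49.8, 52.6 and 44.2 CPM in sham Xmo 1 to 4 and 131, 84.2 and 128 CPM in sham saline 1 to 3. Levels were thus high in 3 of 4 OVX Xmo libraries and in sham saline, and low in both other groups and in OVX Xmo 3, whose level lay within the range of OVX saline.

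The contrast used to pick the gene averaged 123 ± 40.7 CPM in OVX Xmo and 57.3 ± 6.73 CPM in OVX saline (SD, n = 4 each), a log2 fold change of 1.10 (SE 0.22). Without OVX Xmo 3 it was 1.31. OVX saline stood at a log2 fold change of -0.9997 (SE 0.23) against sham saline, and OVX Xmo at 1.37 (SE 0.22) against sham Xmo. The log2 fold change with Xmo after OVX less that after the sham operation was 2.37 (SE 0.32). These 4 values use the libraries that chose the gene and are given without a test.

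The effect of Xmo in sham-operated mice compares none of those libraries, which enter the fit only through the shared estimate of the spread. There Rap1gap2 fell, to 47.5 ± 4.45 CPM in sham Xmo (SD, n = 4), against 115 ± 26.3 CPM in sham saline (SD, n = 3), and the groups did not overlap. The log2 fold change was -1.27 (SE 0.23, 95% interval -1.78 to -0.76, edgeR's quasi-likelihood test with Benjamini-Hochberg adjusted p = 0.0220). It was the 1 member of 10 that passed, where 1.51% of all genes passed, and 0.791% of all genes passed with lower levels in sham Xmo. The value was lower in sham Xmo under all 24 other settings and passed under 18 of them. Without sham saline 3, sham Xmo 3 or sham Xmo 4 the adjusted p was 0.115, 0.0535 and 0.0588, and with only the 2 groups in the fit it was 0.0613 (edgeR). The mitochondrial share was higher in sham saline, and its part in the result was not tested. TMM scaling already offsets much of that share, so leaving the mitochondrial counts out can change little and decides nothing about it. With them left out the value was -1.27 (adjusted p = 0.0220 by edgeR). The median of all genes was 0.026 in both fits. Without sham saline 2, the library with the highest share, the value was -1.46. On log2(TPM + 1) it was -0.50 with limma (adjusted p = 0.150), and -1.004 (adjusted p = 0.0287) once each library was centred on its median gene. Sham saline 2 had 14.2 TPM, below the 14.5 to 19.4 TPM of sham Xmo, and sham saline 1 and 3 had 37.0 and 27.8 TPM, so the sham groups overlapped on that scale.

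**Figure D2:**
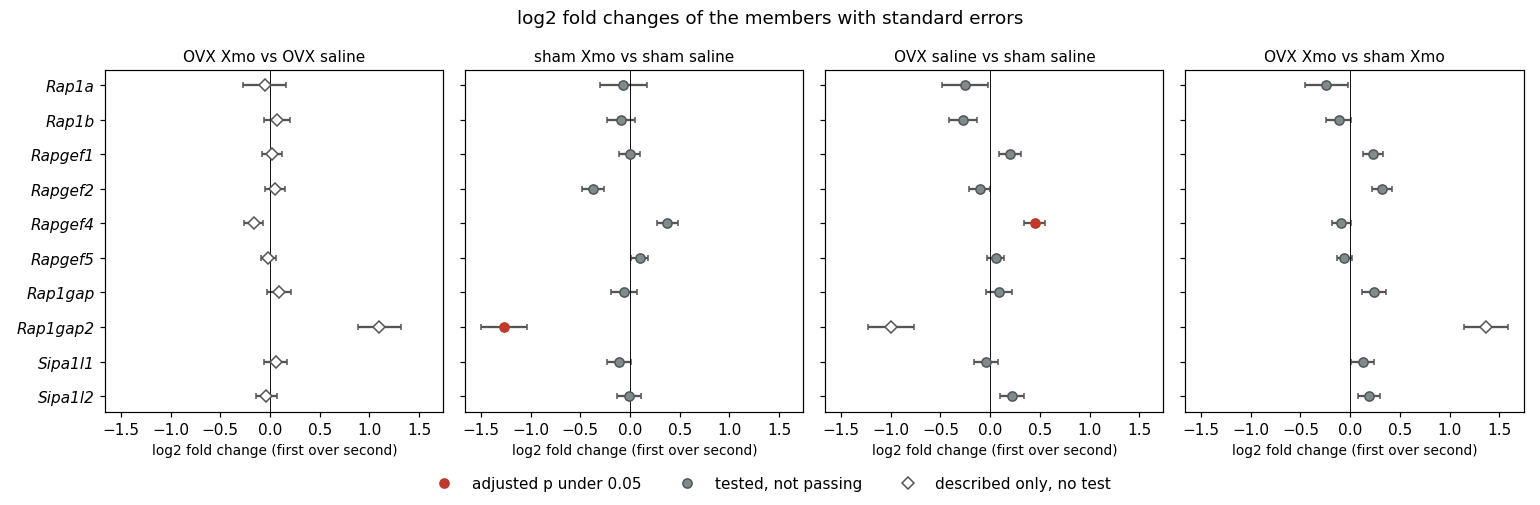
log2 fold change (first group over second) with its standard error for each member in 4 comparisons; red, adjusted p under 0.05; grey, tested and not passing; open diamonds, described without a test. Rap1gap2 is farthest from 0 of the members, at -1.27 in sham Xmo against sham saline. It is also farthest in the comparisons with an OVX group (1.10 in OVX Xmo against OVX saline), but these use the libraries it was picked by.

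The transcript length implied by the ratio of count to FPKM also differed for Rap1gap2. It was 6548, 6508, 5121 and 6064 bases in OVX Xmo 1 to 4 and 5529, 5241, 5380 and 5929 bases in OVX saline 1 to 4. It was 5487, 6169, 5721 and 5405 bases in sham Xmo and 6504, 6172 and 6541 bases in sham saline. The 6 libraries above 80 CPM had implied lengths of 6064 bases or more, as did sham Xmo 2 at 49.8 CPM, and OVX Xmo 3 had the shortest. Over the 15 libraries the Pearson r of length with log2 CPM was 0.774, and both quantities contain the same count. The other members had r between -0.418 for Rap1b and 0.521 for Rapgef4. The coefficient of variation of the length was 8.65% for Rap1gap2 and 6.75% for Rap1gap. The median was 3.77% over 11425 genes with at least 100 counts in every library, of which 19.2% reached that of Rap1gap2. The sources used here do not say how the authors set the length.

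**Figure D3:**
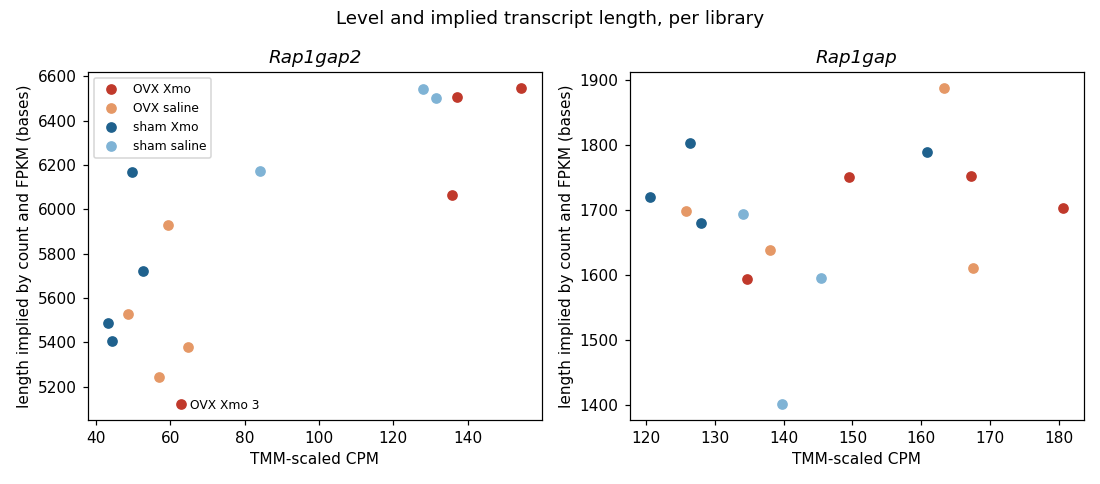
Transcript length implied by count and FPKM (bases) against TMM-scaled CPM per library, for Rap1gap2 and Rap1gap; the length axes do not start at 0. The libraries of Rap1gap2 above 80 CPM lie at 6064 bases or more. Lengths of Rap1gap also vary, from 1401 to 1888 bases, with r = 0.165 to its level. Of the members not shown, Rapgef4 has the highest r, 0.521.

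Marker lists of cell types and subfields were set beside Rap1gap2 as a description over the same 15 libraries. The r values use the mean log2 CPM of a list's markers, whereas the levels given are sums of their CPM. The highest Pearson r was with the neuronal list, 0.573, and the lowest with the oligodendrocyte list, -0.479. The CA1 list (r = 0.455, 6 of 6 markers detected) summed to 264 to 464 CPM in OVX Xmo, 217 to 313 CPM in OVX saline, 206 to 287 CPM in sham Xmo and 179 to 380 CPM in sham saline. The endothelial list was at 144 to 178 CPM in sham Xmo and 173 to 269 CPM in sham saline. OVX Xmo 3 had 1772 CPM of choroid plexus markers, against 75.3 to 246 CPM in the other OVX Xmo libraries. Its dentate granule markers summed to 402 CPM, against 419 to 542 CPM, and its neuronal markers to 7762 CPM, against 7788 to 8133 CPM. It was above the others for CA1 (464 CPM, against 264 to 422 CPM) and interneuron markers (574 CPM, against 462 to 569 CPM). The same held for neutrophil and blood markers (889 CPM, against 356 to 662 CPM) and endothelial markers (153 CPM, against 136 to 150 CPM). Choroid plexus markers (8 of 8 detected) summed to 76.0 to 457 CPM in OVX saline, 118 to 8442 CPM in sham Xmo and 206 to 1242 CPM in sham saline. No marker of the neuronal, oligodendrocyte, CA1, endothelial, choroid plexus or dentate lists was at 0 in any library. Elsewhere in the lists, the thalamus and habenula marker Pou4f1 was at 0 in 5 libraries and did not pass the low-count filter, and the neutrophil genes S100a8, S100a9, Ngp, Retnlg and Lcn2 were at 0 in 5, 3, 2, 6 and 2 libraries. Their part in the result was not tested.

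The other 3 GTPase-activating proteins did not pass in any comparison in which they were tested. Rap1gap, the founding member of the family, had 135 to 181 CPM in OVX Xmo, 126 to 167 CPM in OVX saline, 121 to 161 CPM in sham Xmo and 134 to 145 CPM in sham saline. Its log2 fold change was -0.06 (SE 0.13) in sham Xmo against sham saline (95% interval -0.34 to 0.22). Sipa1l1 (SPAR), known as a spine-associated protein that binds actin and PSD-95, had 263 to 339 CPM in OVX Xmo, 274 to 302 CPM in OVX saline, 265 to 283 CPM in sham Xmo and 249 to 363 CPM in sham saline. Sipa1l2, its relative, was between 39.7 and 61.4 CPM in all libraries. In sham Xmo against sham saline the log2 fold change was -0.11 for Sipa1l1 (95% interval -0.38 to 0.16) and -0.011 for Sipa1l2 (95% interval -0.27 to 0.25).

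Neither GTPase passed in any comparison in which it was tested. Rap1b had 48.3, 46.0, 41.2 and 34.5 CPM in OVX saline 1 to 4, against 51.1, 50.8 and 52.3 CPM in sham saline 1 to 3. The groups did not overlap, and the log2 fold change was -0.27 (SE 0.14, edgeR adjusted p = 0.239). Rap1a had 39.5, 45.0, 36.7 and 33.0 CPM in OVX saline and 44.3, 45.4 and 48.5 CPM in sham saline, with a log2 fold change of -0.26 (SE 0.23, edgeR adjusted p = 0.538). OVX saline 2 reached into the sham saline range for Rap1a. The direction of both flipped without scaling, to 0.045 for Rap1b and 0.07 for Rap1a, where the median of all genes shifted by 0.33. Rap1a also overlaps a gene on the same strand, Gm43328, which had 113 counts on average, against 1246 for Rap1a, so its level is uncertain to that extent.

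Of the exchange factors, Rapgef4 rose in OVX saline. This cyclic AMP-activated factor had 489, 475, 393 and 399 CPM in OVX saline 1 to 4, against 337, 294 and 334 CPM in sham saline 1 to 3. All 4 OVX saline libraries were above all 3 sham saline libraries. The means were 439 ± 50.1 CPM in OVX saline (SD, n = 4) and 322 ± 24.3 CPM in sham saline (SD, n = 3), a log2 fold change of 0.45 (SE 0.10, edgeR's quasi-likelihood test with Benjamini-Hochberg adjusted p = 0.0264). It was the 1 of 9 members tested that passed, where 6.24% of all genes passed, and 3 of the 10 members had groups without overlap (Rapgef4, Rap1b and Rap1gap2), where 24.5% of all genes had. Rap1gap2 counts there through OVX saline levels that its choice used, so nothing is read from that count. The call was lost without OVX saline 1, 2 or 4 or without sham saline 2 or 3, with edgeR adjusted p between 0.0529 and 0.1003, and with only the 2 groups in the fit (0.0538). The median log2 fold change of all 10 members was 0.0073, against 0.0050 over all genes tested. That median includes Rap1gap2 as well, so nothing is read from it either.

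Rapgef4 had 428, 379, 459 and 404 CPM in sham Xmo, again above every sham saline library, with a log2 fold change of 0.38 (SE 0.10, edgeR adjusted p = 0.0764). DESeq2 passed it at 0.36 (adjusted p = 0.0218). In OVX Xmo it had 426, 362, 389 and 391 CPM, which overlapped OVX saline, with a log2 fold change of -0.16 (SE 0.10, no test). Groups without overlap in sham Xmo against sham saline numbered 2 of the 10 members (Rapgef4 and Rap1gap2), where 14.2% of all genes had none. Antisense transcripts overlap Rapgef4, and the most abundant of them, Rapgef4os3, had 138 counts on average, against 12318 for Rapgef4. The sources used here do not say whether reads were counted by strand.

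Rapgef2 (PDZ-GEF1), an exchange factor with a PDZ domain, had 114, 119, 116 and 110 CPM in sham Xmo 1 to 4, against 158, 117 and 171 CPM in sham saline 1 to 3. Sham saline 2 lay within the sham Xmo range and the other 2 sham saline libraries above it. The log2 fold change was -0.37 (SE 0.11, edgeR adjusted p = 0.0902). Without sham saline 2 it was -0.53 and passed (edgeR adjusted p = 0.0136), and DESeq2 passed it with all libraries at -0.39 (adjusted p = 0.0231). On log2(TPM + 1) its sign flipped to 0.16, where the median of all genes shifted by 0.42.

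Rapgef1, which Crk adaptors bring to the membrane, had 58.4 to 66.0 CPM in OVX Xmo, 54.5 to 66.4 CPM in OVX saline, 50.3 to 57.4 CPM in sham Xmo and 43.8 to 59.1 CPM in sham saline. Rapgef5, an exchange factor of Rap and other Ras-like GTPases, was the steadiest member, between 102 and 128 CPM in all libraries. Neither passed in any comparison in which it was tested.

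Surgery was also compared under Xmo. Rapgef2 had 133, 136, 145 and 157 CPM in OVX Xmo, above all 4 sham Xmo libraries, with a log2 fold change of 0.32 (SE 0.10, edgeR adjusted p = 0.335). Rapgef1 did not overlap either, at 0.23 (SE 0.10, edgeR adjusted p = 0.457). With Rap1gap2, 3 of the 10 members had groups without overlap, where 5.88% of all genes had. Rap1gap2 counts there through OVX Xmo levels that its choice used, so nothing is read from that count. None of the 9 members tested passed in edgeR, where 0.01% of all genes passed and 2027 genes had an unadjusted p under 0.05. DESeq2 passed none of the 9 either. The median log2 fold change of all 10 members, Rap1gap2 included, was 0.16, against -0.017 over all genes tested. It holds a value that the choice of Rap1gap2 used, so nothing is read from it.

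OVX Xmo against OVX saline is the contrast that Rap1gap2 was chosen by, and the members are described in it without a test. Over the whole table edgeR passed 0% of 19969 genes, 834 genes had an unadjusted p under 0.05 and DESeq2 passed 3. The members other than Rap1gap2 had log2 fold changes between -0.16 for Rapgef4 and 0.09 for Rap1gap, and their groups overlapped throughout (0 of 10 members without overlap, against 3.11% of all genes). The median of all 10 members, Rap1gap2 included, was 0.037, against 0.0034 over all genes tested.

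A list of 58 other genes of Rap signalling, drawn up with earlier results of these data known, was read in the same fit. All 58 passed the filter on low counts. The list held 3 Rap2 GTPases, 8 exchange factors, 6 GTPase-activating proteins and 17 effectors. It also held 14 adaptors and upstream signals, 5 genes for prenylation and a chaperone, and 5 kinases of the cascade. In OVX saline against sham saline 4 rose, 2 fell and 52 did not pass, where 6.24% of all genes passed. In sham Xmo against sham saline none rose, 2 fell and 56 did not pass, where 1.51% of all genes passed. None of the 58 passed in OVX Xmo against OVX saline or in OVX Xmo against sham Xmo. The median log2 fold change of the list was 0.0011, -0.030, 0.035 and 0.079 in that order of comparisons, against 0.0050, 0.026, 0.0034 and -0.017 over all genes tested.

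The 4 that rose in OVX saline came from 4 roles. Rapgef3, the Epac1 gene, had 34.0 ± 2.47 CPM in OVX saline (SD, n = 4) and 21.9 ± 2.59 CPM in sham saline (SD, n = 3), a log2 fold change of 0.63 (SE 0.13, edgeR adjusted p = 0.0176). Map2k2, a MEK kinase, had 49.9 ± 2.82 CPM in OVX saline and 34.0 ± 3.91 CPM in sham saline (log2 fold change 0.55, edgeR adjusted p = 0.0152). Cdk5, a neuronal kinase, stood at 0.44 (edgeR adjusted p = 0.0132) and Rgl2, a Ral exchange factor that binds Rap, at 0.52 (edgeR adjusted p = 0.0398). The groups of all 4 did not overlap. In sham Xmo against sham saline the same 4 genes had values of 0.43, 0.39, 0.32 and 0.41 without passing, and both comparisons share the sham saline libraries.

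The 2 that fell were the same in both comparisons, which share sham saline. Prkaca, a catalytic subunit of protein kinase A, had 78.3 to 96.4 CPM in OVX saline, against 95.3 to 139 CPM in sham saline (log2 fold change -0.47, edgeR adjusted p = 0.0280), and OVX saline 3 reached into the sham saline range. It had 73.3 to 81.7 CPM in sham Xmo, below every sham saline library (-0.59, edgeR adjusted p = 0.0249). Apbb1ip, the effector RIAM that links Rap1 to talin and is known from leukocytes, had 4.14 ± 0.319 CPM in OVX saline, 4.07 ± 0.367 CPM in sham Xmo and 6.66 ± 0.934 CPM in sham saline. Its log2 fold changes were -0.69 (edgeR adjusted p = 0.0245) in OVX saline and -0.71 (edgeR adjusted p = 0.0388) in sham Xmo. Neither gene passed in either comparison once the scaling was left out. Prkaca was then at -0.16 in OVX saline and -0.30 in sham Xmo, and Apbb1ip at -0.35 and -0.40, where the median of all genes shifted by 0.33 and 0.32. On log2(TPM + 1) Prkaca was at 0.15 in OVX saline, with its sign turned, and at -0.039 in sham Xmo, and Apbb1ip at -0.053 and -0.13, where that median shifted by 0.47 and 0.42. With each library centred on its median gene both passed in both comparisons, Prkaca at -0.40 and -0.55 and Apbb1ip at -0.61 and -0.64. Without sham saline 3 the number passing fell to 0 of 58 in OVX saline and in sham Xmo. In OVX saline it was 3 without OVX saline 1 or 2 and 2 without sham saline 2. In sham Xmo it was 0 without sham Xmo 3 or 4, 1 without sham Xmo 2 or OVX saline 2 or 3, and 5 without OVX Xmo 4. Prkaca differed in its response to Xmo between OVX and sham mice by 0.79 (SE 0.15, edgeR adjusted p = 0.0410), the 1 gene of 58 to pass that test, where 0.416% of all genes passed. It passed under 7 of 23 other settings, and was lost without the filter (edgeR adjusted p = 0.0695) and on centred TPM (limma adjusted p = 0.0600). Its level in OVX Xmo was 92.3 to 101 CPM.

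**Figure D4:**
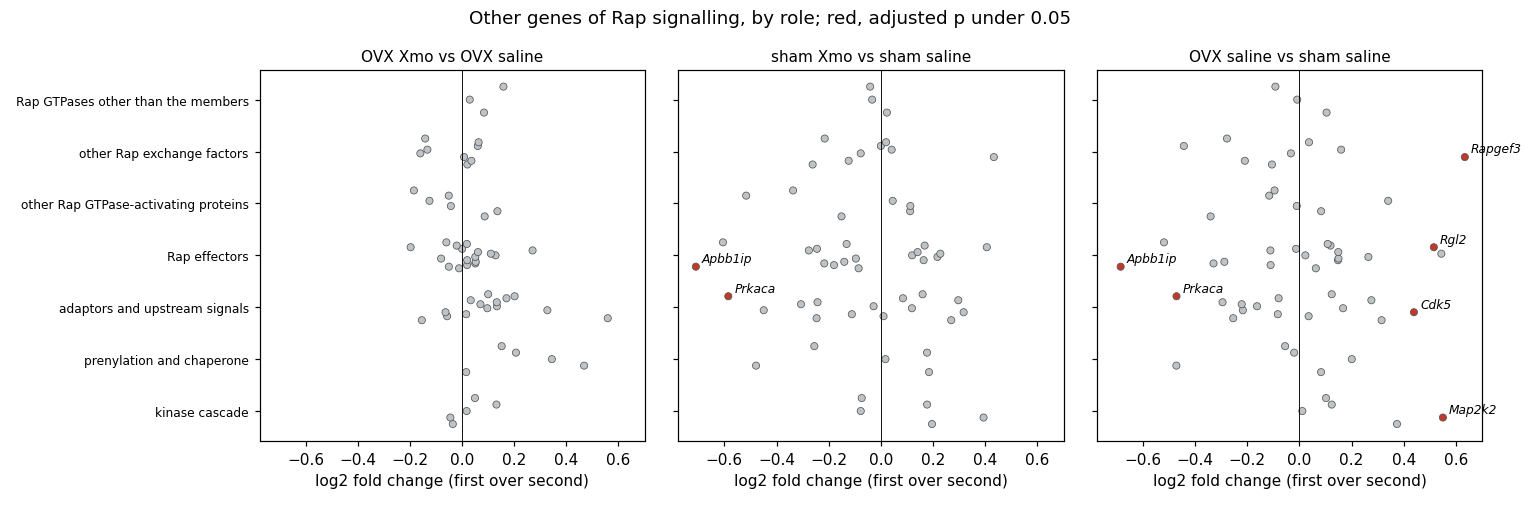
log2 fold change (first group over second) of the 58 other genes of Rap signalling by role in 3 comparisons; red, adjusted p under 0.05, with the gene named. Passing genes are 0 of 58 in OVX Xmo against OVX saline, 2 in sham Xmo against sham saline and 6 in OVX saline against sham saline.

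Across the 15 libraries, which share the 4 groups and their differences in mitochondrial share, the genes most like Rap1gap2 in log2 CPM were Prag1 (Pearson r = 0.825), Myadm, Dscam, Spock2, Rpusd2, Grin3a, App, Adgrl3, Asap2 and Map1b (r = 0.795). Prag1 had 17.7 ± 2.19 CPM in OVX Xmo, 14.6 ± 1.52 CPM in OVX saline, 11.4 ± 0.419 CPM in sham Xmo and 19.9 ± 5.08 CPM in sham saline. The most opposed were Rev1 (r = -0.876), Rnf13, Med20, Rpl30 and Vpreb1, the last of which averaged only 0.190 CPM. All these r include the OVX libraries that Rap1gap2 was picked by, and group means were not removed from them. Rev1 had 31.4 ± 0.519 CPM in OVX Xmo, 35.3 ± 0.959 CPM in OVX saline, 37.1 ± 1.55 CPM in sham Xmo and 30.4 ± 1.54 CPM in sham saline. No gene of these 15 was a member or on the list of Rap signalling.

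Among the 45 pairs of members, Rapgef1 and Sipa1l2 were most alike (r = 0.859, and 0.774 after group means were removed), followed by Rap1a and Rap1b (r = 0.840, and 0.841 after removal). The pair farthest below 0 was Rap1b and Rap1gap (r = -0.679, and -0.691 after removal). The closest member to Rap1gap2 was Rapgef2 at 0.638, which was 0.313 after group means were removed.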

How the data were processed

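RNA was taken from frozen hippocampi with Trizol and sequenced from TruSeq libraries, as the labels' protocols state. The build GRCm38.p6 and the tools StringTie 1.3.3b, Bowtie2 2.3.2, Trimmomatic 0.36 and FastQC 0.11.2 are named, without their roles, in the submitters' processing notes. The authors deposited whole-number counts per gene beside TPM and FPKM, per the file headers. No sample of the series matches 12 more columns, which stayed out of every step.

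Counts were filtered with filterByExpr by group, scaled by TMM and fitted with edgeR 4.0.16 (quasi-likelihood, 4 groups, 15 libraries, 11 residual degrees of freedom) in R 4.3.3. Benjamini-Hochberg adjustment ran over all 19969 genes, and a gene passed at an adjusted p under 0.05. Log2 CPM used a prior count of 2. Totals were 20848661 to 39140593 counts per library. Alternatives were DESeq2 1.42.0, its size factors, no filter, no mitochondrial counts, only the groups compared, a replicate block and each library left out. Added after seeing the data were no scaling, and limma 3.58.1 on deposited TPM with a pseudocount of 1, plain or centred. The code was tested on simulated data.

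The members and lists were chosen with earlier results of these data known. All 10 members were named, with at most 6 passing genes of the Rap list per comparison by smallest p, and the 10 genes most like and 5 most opposed to Rap1gap2. Promoter windows came from RefSeq (GRCm38.p6), which matched 9 of the 10 members.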

Additional observations from a re-analysis of the deposited data

Results flagged for a closer look

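In OVX Xmo, Rap1a had 52.2 CPM in OVX Xmo 4, against 31.3 to 33.6 CPM in the other 3 libraries. In sham Xmo, Rap1b had 59.3 CPM in sham Xmo 1, against 43.8 to 45.6 CPM in the other 3. Each lay farther from its neighbour than Dixon's test allows at the 95% level, and of the 33 groups of 4 that were examined chance alone marks about 1 in 20.

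The log2 fold change with Xmo in OVX mice less that in sham mice was 2.37 for Rap1gap2, which was picked on its OVX values. For Rapgef4 it was -0.54. Both are descriptions, and no test of the difference is read for either. For Prkaca, which is no member, it was 0.79 (SE 0.15, edgeR adjusted p = 0.0410), with the same sign under 23 of 23 other settings and passing under 7 of them.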

How the results depend on the processing

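The fall of Rap1gap2 in sham Xmo against sham saline stood at -1.29 with only the 2 groups in the fit (adjusted p = 0.0613) and at -0.50 on log2(TPM + 1) (adjusted p = 0.150), and leaving out 1 library gave -1.46 to -1.16. Replicate numbers gave no clear pairing of the samples: of 21 same-numbered pairs 2 correlated above 0.1 (r from -0.21 to 0.19). Those were OVX Xmo 2 with sham Xmo 2 (r = 0.19) and with sham saline 2 (r = 0.17). Pairs with different numbers were not set beside them, so the check cannot decide whether samples were handled together by number. With the replicate block the fall was -1.28 (adjusted p = 0.0731), no member passed in OVX saline or in sham Xmo against sham saline (0 each), and the Rap list had 1, 0 and 0 passing genes in these 2 comparisons and in the difference between Xmo responses. The block moved all calls from 1246 to 178 in OVX saline, from 302 to 37 in sham Xmo, and from 83 to 11 in the difference between responses. The cause was not tested.

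For OVX saline against sham saline, passing members numbered 0 with only the 2 groups, 4 without scaling and 6 on TPM, and passing list genes 15 without scaling and 37 on TPM. For sham Xmo against sham saline, members numbered 3 with DESeq2, 0 with only the 2 groups, 3 without scaling and 3 on TPM, and list genes 6 with DESeq2, 1 without the filter, 0 with only the 2 groups, 12 without scaling and 24 on TPM. DESeq2 passed 1 list gene in OVX Xmo against sham Xmo. Rap1gap2 was picked on OVX Xmo against OVX saline, which is also part of the difference between responses, so counts of members under the threshold in these are descriptions and no test of them. They were 1 with DESeq2 in the first, and 2 with DESeq2, 2 without scaling and 2 on TPM in the second. List genes in the second numbered 4 with DESeq2, 0 without the filter, 4 without scaling, 5 on TPM and 0 on centred TPM. Without 1 library, passing members ranged from 0 to 1 in OVX saline against sham saline and 0 to 2 in sham Xmo against sham saline, and the descriptive counts were 0 to 1 in OVX Xmo against OVX saline and 1 to 2 for the difference between responses. List genes ranged from 0 to 7, 0 to 5, 0 to 0 and 0 to 2 in the same order, and OVX Xmo against sham Xmo stayed at 0 for both.

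Over all genes, calls in OVX saline against sham saline numbered 1246 (728 higher), 2322 with DESeq2, 568 without the filter, 4799 without scaling (4618 higher), 9425 on TPM (9333 higher) and 3076 on centred TPM (1189 higher). In sham Xmo against sham saline they numbered 302 (144 higher), 1110 with DESeq2, 108 without the filter, 6 with only the 2 groups, 3559 without scaling (3461 higher), 7030 on TPM (6979 higher) and 543 on centred TPM (177 higher). In OVX Xmo against sham Xmo they numbered 2, and 76 with DESeq2, 0 with only the 2 groups and 0 with the block. In OVX Xmo against OVX saline they numbered 0, and 3 with DESeq2 and 1 with only the 2 groups. For the difference between responses they numbered 83 (54 higher), 852 with DESeq2, 20 without the filter, 1182 without scaling (41 higher), 1753 on TPM (19 higher) and 34 on centred TPM.

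Signs of members that did not pass flipped under settings that moved the median of all genes, and some also flipped under other settings. In OVX saline against sham saline, where that median moved by 0.33 without scaling and by 0.47 on TPM, the values without scaling were 0.07 for Rap1a, 0.045 for Rap1b, 0.20 for Rapgef2 and 0.28 for Sipa1l1. On TPM they were 0.41, 0.35, 0.49 and 0.58 in that order, and Sipa1l1 was at 0.026 on centred TPM. In sham Xmo against sham saline, where it moved by 0.32 and 0.42, the values without scaling were 0.22 for Rap1a, 0.20 for Rap1b, 0.28 for Rapgef1, 0.24 for Rap1gap, 0.18 for Sipa1l1 and 0.27 for Sipa1l2. On TPM they were 0.44, 0.43, 0.44, 0.32, 0.44 and 0.48 in that order, with 0.16 for Rapgef2. Without the filter, Rapgef1 was at 0.011 and Sipa1l2 at 0.0033. In OVX Xmo against sham Xmo, Rapgef4 was at 0.0066 on TPM, and Rapgef5 at 0.071 on TPM and 0.028 on centred TPM. Leaving out 1 library gave -0.26 to 0.0087 for Rapgef2, -0.0028 to 0.066 for Rapgef5 and -0.15 to 0.14 for Sipa1l1 in OVX saline against sham saline. It gave -0.34 to 0.071 for Rap1a, -0.14 to 0.069 for Rapgef1, -0.23 to 0.067 for Sipa1l1 and -0.15 to 0.068 for Sipa1l2 in sham Xmo against sham saline, and -0.45 to 0.033 for Rap1a in OVX Xmo against sham Xmo.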
